A study of Mus musculus with 6 samples.

Results

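Expression of 10 genes of the Nrf2 and glutathione antioxidant system was compared in the mouse pancreas during caerulein-induced acute pancreatitis (AP). The genes were chosen by name and are Nfe2l2, Keap1, Gclc, Gclm, Slc7a11, Gpx2, Txnrd1, Srxn1, Nqo1 and Hmox1. They and the gene lists used below were chosen with earlier results of these data known. Counts set against all tested genes are therefore descriptions and not tests. They are 10 of the 22556 genes listed for every library, and all 10 had a mean of at least 1 TPM, as had 16814 genes in all. RNA was sequenced from the pancreas of wild-type C57BL/6 mice at postnatal week 8, with 2 libraries in each of 3 groups. Saline mice received saline alone. AP mice received caerulein (cerulein in the labels), an analog of cholecystokinin that overstimulates acinar cells, in 10 injections 1 h apart. The last set, polyI:C AP mice, was pretreated before caerulein with polyI:C, which mimics double-stranded RNA. The pancreas was collected 24 h from the start of caerulein.

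Nrf2, encoded by Nfe2l2, is a transcription factor that is held in the cytoplasm and passed to the proteasome by Keap1 until oxidants or electrophiles modify Keap1. Freed Nrf2 pairs with small Maf proteins on antioxidant response elements and drives genes for glutathione synthesis, thioredoxin recycling, quinone reduction and heme breakdown. In the pancreas, glutathione is abundant in acinar cells, and its loss is a known early feature of experimental pancreatitis.

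Expression is given in TPM, a transcript abundance that corrects the reads of a gene for its length and makes every library sum to the same total. The spacing of low values gave estimates of 3962020 and 3297120 reads for the saline libraries, 6900070 and 8836310 for AP, and 8820990 and 10826500 for polyI:C AP. Low genes were thus measured least precisely in saline mice. The labels give total RNA as the molecule and name both a kit that removes ribosomal RNA and a stranded mRNA kit, so how the RNA was selected is uncertain. Log2 fold changes were taken on log2(TPM + 0.5), which understates the change of low genes, and tested with limma over all 16814 genes with Benjamini-Hochberg adjustment. A gene was called at an adjusted p of at most 0.05 and a change of at least 2-fold. The labels name separate samples without saying that each came from its own mouse, so the p-values measure the spread between these samples.

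The polyI:C AP library of replicate 2 stood apart from the other 5. It held 147 genes at 10 TPM or more and over 10 times their level in every other library, which together made up 1.18% of its TPM, against 6 to 22 such genes in each of the others. Of a list of 12 genes of the small intestinal epithelium, drawn up after these values were seen, all 12 were over 5 times higher in this library than in any other. Their summed level was 4036 TPM in this library, against 6.97 and 4.88 TPM in saline mice, 5.48 and 8.74 TPM in AP mice, with replicate 1 of polyI:C AP at 4.52 TPM. The most abundant was Fabp1, at 1429.6 TPM here and at 0 to 3.35 TPM elsewhere, while Apoa4, Cdx1 and Cdx2 were listed at 0 in the other 5 libraries. Fold changes of the members in polyI:C AP versus AP are therefore given with and without this library. Without it, 16589 genes were tested.

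Over all tested genes, the log2 fold change had a median of 0.45 in AP versus saline and of 0.48 in polyI:C AP versus saline. Median-of-ratios scaling lowered these medians to 0.05 and 0.06, and the share of called genes that were higher went from 81.8% to 56.1% and from 85.0% to 57.4%. For polyI:C AP versus AP the median was 0.04, and 0.02 after scaling. Changes versus saline are therefore also given relative to the median.

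AP versus saline asks what pancreatitis does to the antioxidant genes. Of the 10 genes, 7 rose in AP mice (Nfe2l2, Gclc, Gpx2, Txnrd1, Srxn1, Nqo1 and Hmox1), against 18.2% of all tested genes, and 0 fell, against 4.03%. The median log2 fold change was 1.91 over the 10 genes and 0.45 over all tested genes. With median-of-ratios scaling the same 7 genes were called and the median of the 10 was 1.49, while over all 16785 genes then tested 1565 were called higher (9.32%) and 1225 lower (7.3%), against 3053 and 677 of 16814 without scaling. Srxn1, Hmox1 and Gclc had the largest rises, at 17.8, 12.1 and 10.8 times the saline mean. Keap1, Gclm and Slc7a11 were not called.

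PolyI:C AP versus AP asks how pretreatment alters that pattern. None of the 10 genes was called by limma (0 of 10), against 0.44% of all tested genes called higher and 0.404% called lower. The count was 0 under every alternative run but that of an unadjusted p with 2-fold, which gave 1 (Gpx2). Without AP replicate 1, AP replicate 2 or polyI:C AP replicate 2, limma called 0 of all tested genes in this comparison. The 10 genes had a median log2 fold change of 0.37 with all libraries and 0.21 without polyI:C AP replicate 2. Over all tested genes it was 0.04 and 0.05. With all libraries, at an unadjusted p of at most 0.05, 4 of the 10 were higher (Nfe2l2, Gclc, Gclm and Gpx2), against 7.83% of all tested genes, and Hmox1 was lower, against 6.07%. In 6 of the 10 genes both polyI:C AP libraries were higher than both AP libraries, against 27.7% of all tested genes, and in 1 both were lower, against 22.1%. PolyI:C AP mice stayed far from saline mice, with the same 7 genes called higher as in AP mice, with and without replicate 2. Of all tested genes, 16.9% were called higher and 2.97% lower in that comparison. The 3 comparisons share libraries and are not independent.

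**Figure D1:**
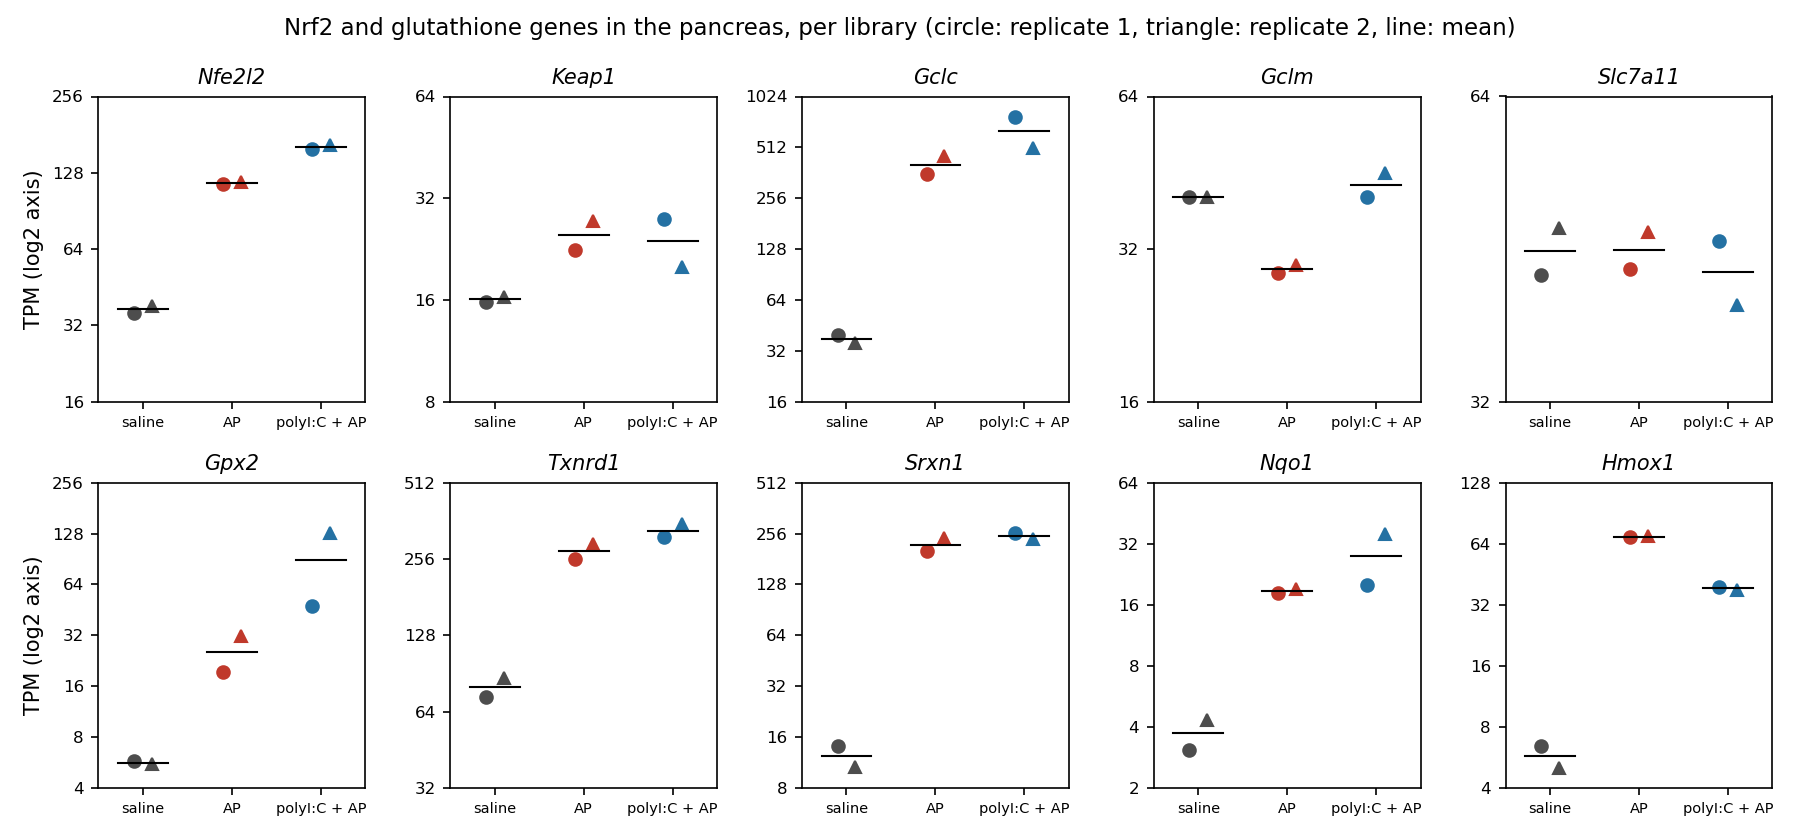
TPM of the 10 genes on log2 axes that differ between panels, with 1 symbol per library (circle, replicate 1; triangle, replicate 2) and a line at the mean of each group. Hmox1 was highest in AP mice at 68.9 and 69.8 TPM, while Nfe2l2 was highest in polyI:C AP mice at 159 and 165 TPM.

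The regulator Nfe2l2 (ENSMUSG00000015839, GRCm38 chromosome 2 from 75675513 to 75704641, minus strand) was measured at 35.8 and 38.2 TPM in saline mice, 115 and 117 TPM in AP mice, and 159 and 165 TPM in polyI:C AP mice. The groups did not overlap, and the 2 libraries of a group lay close together. Nfe2l2 rose by 1.64 on the log2 scale in AP versus saline (standard error 0.09, adjusted p = 7.86e-05 from limma), 1.19 above the median of all genes. Between polyI:C AP and AP mice its log2 fold change was 0.48 (95% interval 0.26 to 0.70, adjusted p = 0.0693 from limma), and 0.46 without replicate 2 (adjusted p from 0.0445 to 0.438 over all alternatives). Keap1 (ENSMUSG00000003308, chromosome 9 from 21229730 to 21239361, minus strand), the adaptor that brings Nrf2 to the Cul3 ubiquitin ligase, was measured at 15.7 and 16.4 TPM in saline mice, 22.4 and 27.3 TPM in AP mice, and 27.8 and 19.99 TPM in polyI:C AP mice. Both AP groups were above saline and overlapped each other. The log2 fold change of Keap1 in AP versus saline was 0.61 (adjusted p = 0.0426 from limma), short of 2-fold and 0.16 above the median of all genes. With median-of-ratios scaling it was 0.19, and its adjusted p from limma ran from 0.0284 to 0.474 over all alternatives. Between polyI:C AP and AP mice Keap1 had a log2 fold change of -0.07 (adjusted p = 0.923 from limma), which turned to 0.17 without replicate 2.

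The level of Nfe2l2 divided by that of Keap1 in the same library does not depend on scaling. This ratio was 2.27 and 2.34 in saline mice, 5.14 and 4.29 in AP mice, and 5.73 and 8.26 in polyI:C AP mice. The groups did not overlap, and with 2 libraries a group the smallest p an exact permutation can reach is 0.333.

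Gclc, Gclm and Slc7a11 serve glutathione synthesis. Gclc (ENSMUSG00000032350, chromosome 9 from 77754535 to 77794485, plus strand) encodes the catalytic subunit of glutamate-cysteine ligase, the rate-limiting enzyme. It was measured at 39.5 and 35.6 TPM in saline mice, 356 and 455 TPM in AP mice, and 773 and 509.7 TPM in polyI:C AP mice. All AP libraries were far above saline, and the polyI:C AP libraries were above the AP libraries but apart from each other. Gclc rose by 3.41 in AP versus saline (standard error 0.21, adjusted p = 0.000108 from limma), 2.96 above the median of all genes. In polyI:C AP versus AP the log2 fold change was 0.64 (95% interval 0.14 to 1.14, adjusted p = 0.245 from limma), and 0.94 without replicate 2 (adjusted p from 0.202 to 0.738 over all alternatives).

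Gclm (ENSMUSG00000028124, chromosome 3 from 122245557 to 122270732, plus strand) encodes the modifier subunit of the same enzyme. It was measured at 40.5 and 40.5 TPM in saline mice, 28.7 and 29.7 TPM in AP mice, and 40.6 and 45.2 TPM in polyI:C AP mice. The AP libraries were the lowest, and the lower polyI:C AP library was level with saline. The log2 fold change of Gclm was -0.46 in AP versus saline (standard error 0.10, adjusted p = 0.0121 from limma), short of 2-fold and -0.91 relative to the median of all genes. For polyI:C AP versus AP it was 0.54 (adjusted p = 0.0706 from limma) and without replicate 2 it was 0.47. Versus saline it was 0.08 in polyI:C AP mice and turned to -0.37 with median-of-ratios scaling.

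The ratio of Gclc to Gclm in the same library was 0.976 and 0.879 in saline mice, 12.4 and 15.3 in AP mice, and 19.1 and 11.3 in polyI:C AP mice. Both AP groups were above saline and overlapped each other. The height of this ratio rests on the gene lengths behind TPM, while its change between groups does not.

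Slc7a11 (ENSMUSG00000027737, chromosome 3 from 49892526 to 50443614, minus strand), the light chain of the cystine transporter that supplies cysteine, was measured at 42.7 and 47.4 TPM in saline mice, 43.3 and 47.0 TPM in AP mice, and 46.1 and 39.9 TPM in polyI:C AP mice. The 3 groups overlapped. Its log2 fold change was 0.00 in AP versus saline (95% interval -0.27 to 0.27, adjusted p = 0.994 from limma), -0.45 relative to the median of all genes, and -0.42 with median-of-ratios scaling (adjusted p = 0.0244 from limma; 0.0244 to 1 over all alternatives). Between polyI:C AP and AP mice it was -0.07 (adjusted p = 0.841 from limma), and turned to 0.03 without replicate 2.

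Gpx2 (ENSMUSG00000042808, chromosome 12 from 76792333 to 76795554, minus strand) encodes a glutathione peroxidase best known from the epithelium of the gut. It was measured at 5.78 and 5.53 TPM in saline mice, 19.3 and 31.6 TPM in AP mice, and 47.9 and 129.9 TPM in polyI:C AP mice. The groups did not overlap, but the highest value came from the library with the intestinal genes. Gpx2 rose by 2.03 in AP versus saline (standard error 0.45, adjusted p = 0.0115 from limma), 1.58 above the median of all genes. This call was lost when any 1 of the saline or AP libraries was left out, while the log2 fold change ran from 1.63 to 2.38 over all alternatives. In polyI:C AP versus AP the log2 fold change was 1.66 with all libraries (95% interval 0.58 to 2.73, adjusted p = 0.166 from limma) and 0.94 without replicate 2 (adjusted p from 0.0944 to 0.663 over all alternatives). In polyI:C AP versus saline Gpx2 was higher by 3.69 with all libraries (adjusted p = 0.00117 from limma) and by 2.98 without replicate 2. The part of the intestinal RNA in the level of Gpx2 was not tested.

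Txnrd1 and Srxn1 serve the recycling of thioredoxin and peroxiredoxin. Txnrd1 (ENSMUSG00000020250, chromosome 10 from 82833951 to 82897712, plus strand), the cytosolic thioredoxin reductase, was measured at 73.2 and 87.3 TPM in saline mice, 257 and 294 TPM in AP mice, and 312 and 351 TPM in polyI:C AP mice. The groups did not overlap, with the larger step between saline and AP. Txnrd1 rose by 1.78 in AP versus saline (standard error 0.13, adjusted p = 0.000162 from limma), 1.33 above the median of all genes. For polyI:C AP versus AP the log2 fold change was 0.27 (95% interval -0.04 to 0.57, adjusted p = 0.426 from limma), and 0.18 without replicate 2.

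Srxn1 (ENSMUSG00000032802, chromosome 2 from 152105516 to 152111376, plus strand) encodes sulfiredoxin, which restores overoxidised peroxiredoxins. It was measured at 14.1 and 10.7 TPM in saline mice, 201 and 239.9 TPM in AP mice, and 258 and 237 TPM in polyI:C AP mice. All AP libraries were far above saline, and the AP groups overlapped. Srxn1 rose by 4.11 in AP versus saline (standard error 0.16, adjusted p = 2.48e-05 from limma), the largest rise of the 10 genes and 3.66 above the median of all genes. Between polyI:C AP and AP mice it was 0.17 (95% interval -0.21 to 0.54, adjusted p = 0.707 from limma), and 0.23 without replicate 2.

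Nqo1 (ENSMUSG00000003849, chromosome 8 from 107388225 to 107403206, minus strand), a quinone reductase widely used as a readout of Nrf2, was measured at 3.09 and 4.34 TPM in saline mice, 18.4 and 19.1 TPM in AP mice, and 20.1 and 35.7 TPM in polyI:C AP mice. The saline values rest on about 7 and 8 reads. The groups did not overlap, although polyI:C AP replicate 1 lay just above the AP libraries. Nqo1 rose by 2.21 in AP versus saline (standard error 0.33, adjusted p = 0.00234 from limma), 1.76 above the median of all genes. In polyI:C AP versus AP the log2 fold change was 0.51 with all libraries (95% interval -0.28 to 1.29, adjusted p = 0.574 from limma) and 0.10 without replicate 2 (adjusted p from 0.347 to 0.967 over all alternatives). The part of the intestinal RNA in the higher Nqo1 value was not tested.

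Hmox1 (ENSMUSG00000005413, chromosome 8 from 75093621 to 75100589, plus strand) encodes heme oxygenase 1, the inducible enzyme that breaks heme down to biliverdin, iron and carbon monoxide. It was measured at 6.43 and 5.03 TPM in saline mice, 68.9 and 69.8 TPM in AP mice, and 39.1 and 38.1 TPM in polyI:C AP mice. Its saline values rest on an estimated 16.4 and 10.5 reads. The groups did not overlap, and Hmox1 was the 1 member with AP libraries above both other groups. Hmox1 rose by 3.50 in AP versus saline (standard error 0.17, adjusted p = 4.92e-05 from limma), 3.05 above the median of all genes. For polyI:C AP versus AP the log2 fold change was -0.84 (95% interval -1.23 to -0.44, adjusted p = 0.0756 from limma), and -0.82 without replicate 2 (adjusted p from 0.0327 to 0.492 over all alternatives). Versus saline it was still higher by 2.66 in polyI:C AP mice (adjusted p = 0.000113 from limma), and by 2.68 without replicate 2. Hmox2, which encodes the related heme oxygenase 2, itself rose by 1.22 in AP versus saline (adjusted p = 0.00117 from limma), or 0.80 after scaling. The ratio of Hmox1 to Hmox2 in the same library was 0.359 and 0.289 in saline mice, 1.78 and 1.55 in AP mice, and 0.845 and 0.925 in polyI:C AP mice.

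Markers of other cell types also differed between the groups. Of 12 macrophage and monocyte genes, all 12 were higher in both AP libraries than in both saline libraries, as was Hmox1. The share of all tested genes that did so was not computed. All 12, like Hmox1, were also lower in both polyI:C AP libraries than in both AP libraries, against 22.1% of all tested genes. Of these 12, 10 were called higher in AP versus saline, against 18.2% of all tested genes, and 7 lower in polyI:C AP versus AP, against 0.404%. The latter count was 0 without polyI:C AP replicate 2, although the log2 fold change of Lyz2 was -3.68 with that library and -3.30 without it. Their summed level was 738 and 489 TPM in saline mice, 2806 and 3225 TPM in AP mice, and 787 and 642 TPM in polyI:C AP mice. Lyz2 had the highest mean over all libraries, at 444 and 307 TPM, 1891 and 2118 TPM, and 203 and 119 TPM in the same order. Cd14 was above it in polyI:C AP mice, at 216 and 209 TPM. None of the 12 genes was at 0. The part of these cells in the level of Hmox1 was not tested.

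Part of the duct and acinar lists also moved with AP. Krt19 had the highest mean of the 7 duct genes over all libraries, but Spp1 was above it in saline mice (98.0 and 64.1 TPM against 51.2 and 62.4 TPM). The 7 duct genes summed to 188 and 155 TPM in saline mice, 1496 and 1456 TPM in AP mice, and 1164 and 1195 TPM in polyI:C AP mice. Of these, 4 were called higher in AP versus saline, against 18.2% of all tested genes. Of 12 acinar genes, 6 had values (Cpa1, Cela1, Pnlip, Prss2, Ctrb1 and Cel were not analysed here), and these summed to 2307 and 2111 TPM in saline mice, 784 and 699.7 TPM in AP mice, and 1484 and 1579 TPM in polyI:C AP mice. Gatm had the highest mean over all libraries. In polyI:C AP mice Cckar was above it, at 517 and 594 TPM against 376 and 380 TPM. Of the 6 acinar genes, Nr5a2 was higher in both AP libraries than in both saline libraries (log2 fold change 0.16, or -0.27 after scaling). Ptf1a overlapped between these groups (0.20, or -0.23 after scaling). Another 4 acinar genes were called lower in AP versus saline, against 4.03% of all tested genes. None of the duct or acinar genes was at 0. In polyI:C AP versus AP, 3 of the 6 acinar genes were called higher, against 0.44%. These 3 (Rbpjl, Bhlha15 and Cckar, named after their values were seen) had log2 fold changes of 1.08, 1.73 and 1.66, and of 1.10, 1.68 and 1.56 without polyI:C AP replicate 2, where 0 were called. In these bulk samples, fewer cells of a type and less RNA per cell cannot be told apart, and the part of cell makeup in the rise of the 7 genes was not tested.

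**Figure D2:**
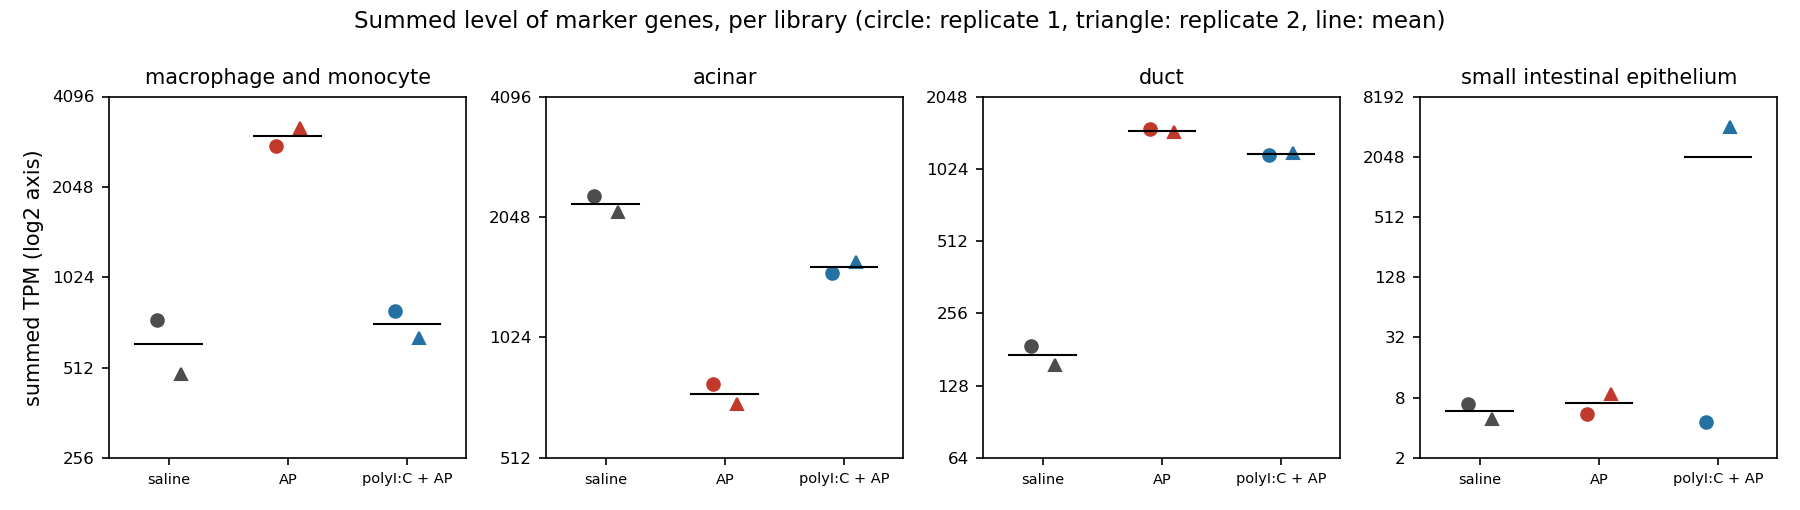
Summed TPM of 4 marker lists on log2 axes that differ between panels, with 1 symbol per library and a line at the mean of each group. The macrophage and monocyte sum was 2806 and 3225 TPM in AP mice, and the small intestinal sum was 4036 TPM in polyI:C AP replicate 2 against 4.52 TPM in replicate 1.

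Around these members, 94 genes were grouped in 9 lists that also hold the 10 members, and 92 of the 94 were tested. In AP versus saline 35 of the 92 rose, against 18.2% of all tested genes, and 7 fell, against 4.03%. The median log2 fold change of the 92 was 0.70, or 0.27 after scaling, against 0.45 and 0.05 over all tested genes. With scaling 26 rose, against 9.32% of all genes then tested, and 9 fell, against 7.3%. The same percentages apply to the counts of each list in this comparison. The 6 genes for NADPH supply all rose, with and without scaling, with a median of 1.68, and Taldo1, an enzyme of the pentose phosphate pathway, rose most. It was measured at 125 and 154 TPM in saline mice, 594 and 709.9 TPM in AP mice, and 700.4 and 626 TPM in polyI:C AP mice, a rise of 2.22 in AP mice (adjusted p = 0.000114 from limma). Among the regulators of Nrf2, 4 of 10 rose (3 with scaling) and 0 fell. Sqstm1, whose product p62 binds Keap1, rose most, from 198 and 241 TPM in saline mice to 1023 and 1130.5 TPM in AP mice (log2 fold change 2.30, adjusted p = 7.15e-05 from limma), and was measured at 872 and 795 TPM in polyI:C AP mice. Akr1b8, an aldo-keto reductase, rose by 4.56, from 8.07 and 6.87 TPM in saline mice to 181 and 192 TPM in AP mice (adjusted p = 1.27e-05 from limma), and was measured at 238 and 210.1 TPM in polyI:C AP mice. It belongs to the list for quinone, carbonyl and conjugate handling, in which 4 of 10 tested genes rose and 0 fell, with and without scaling.

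Of the glutathione S-transferases, 4 of 23 were called higher in AP versus saline, against 18.2% of all tested genes, and 4 lower, against 4.03%, with a median log2 fold change of -0.13. With scaling 3 were called higher and 5 lower, and the median was -0.44. Gstm7 fell most, from 72.9 and 46.4 TPM in saline mice to 5.69 and 7.23 TPM in AP mice (log2 fold change -3.08, adjusted p = 0.000436 from limma), and was measured at 17.2 and 25.2 TPM in polyI:C AP mice. Gsta1 was listed at 0 in both saline libraries, at 7.51 and 10.7 TPM in AP mice and at 4.41 and 84.9 TPM in polyI:C AP mice, and 80.6% of its stretches of 100 bases occur in other genes, so its reads are uncertain.

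Gstm1 and Gsta3 were the 2 of 92 tested list genes called in polyI:C AP versus AP, both higher, against 0.44% of all tested genes called higher and 0.404% lower. Of the 23 glutathione S-transferases, 15 were higher in both polyI:C AP libraries than in both AP libraries, against 27.7% of all tested genes. In 2 both were lower, against 22.1%. Without replicate 2, Gsta2 and Mgst2 fell below the mean of 1 TPM. Over the 21 transferases tested both ways the median log2 fold change was 1.05 with that library and 0.64 without it, against 0.04 and 0.05 over all tested genes. Gstm1 was measured at 221 and 154 TPM in saline mice, 57.1 and 55.9 TPM in AP mice, and 172 and 151 TPM in polyI:C AP mice. It fell by 1.70 in AP versus saline (adjusted p = 0.000646 from limma), and was 1.51 higher in polyI:C AP than AP mice (adjusted p = 0.0217 from limma). Gsta3 was measured at 65.2 and 80.3 TPM in saline mice, 34.9 and 40.1 TPM in AP mice, and 92.5 and 99.7 TPM in polyI:C AP mice. Gsta3 was 1.35 higher in polyI:C AP versus AP (adjusted p = 0.0154 from limma). Both calls were lost without replicate 2 of the polyI:C AP mice, with log2 fold changes of 1.60 and 1.29, and also without either AP library. Of the stretches of 100 bases in Gstm1, 5.86% occur in other genes. Without that library limma called 0 of 16589 genes in this comparison, with 1475 at an unadjusted p of at most 0.05. Like the acinar sum, both transferases were lowest in the AP libraries, and the part of acinar cells in these values was not tested.

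Other lists held genes that fell. Ggt1, which breaks down extracellular glutathione, fell by 2.32 in AP versus saline, from 463 and 564 TPM to 105 and 99.1 TPM (adjusted p = 6.28e-05 from limma), and was measured at 95.4 and 105 TPM in polyI:C AP mice. Prdx4, the peroxiredoxin of the endoplasmic reticulum, fell by 1.80, from 728 and 792 TPM to 219 and 217 TPM (adjusted p = 5.04e-05 from limma), and was measured at 196 and 192 TPM in polyI:C AP mice. Of the glutathione synthesis and supply list 3 of 11 rose and 2 fell, or 2 and 3 with scaling. Of the thioredoxin and peroxiredoxin list 6 of 14 rose and 1 fell, or 4 and 1 with scaling. In the heme and iron list 5 of 8 rose (3 with scaling) and among the glutathione peroxidases 3 of 6 (1 with scaling, Gpx2), and 0 fell in either list. Of 4 superoxide and hydrogen peroxide genes, 0 were called in either direction, with or without scaling.

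**Figure D3:**
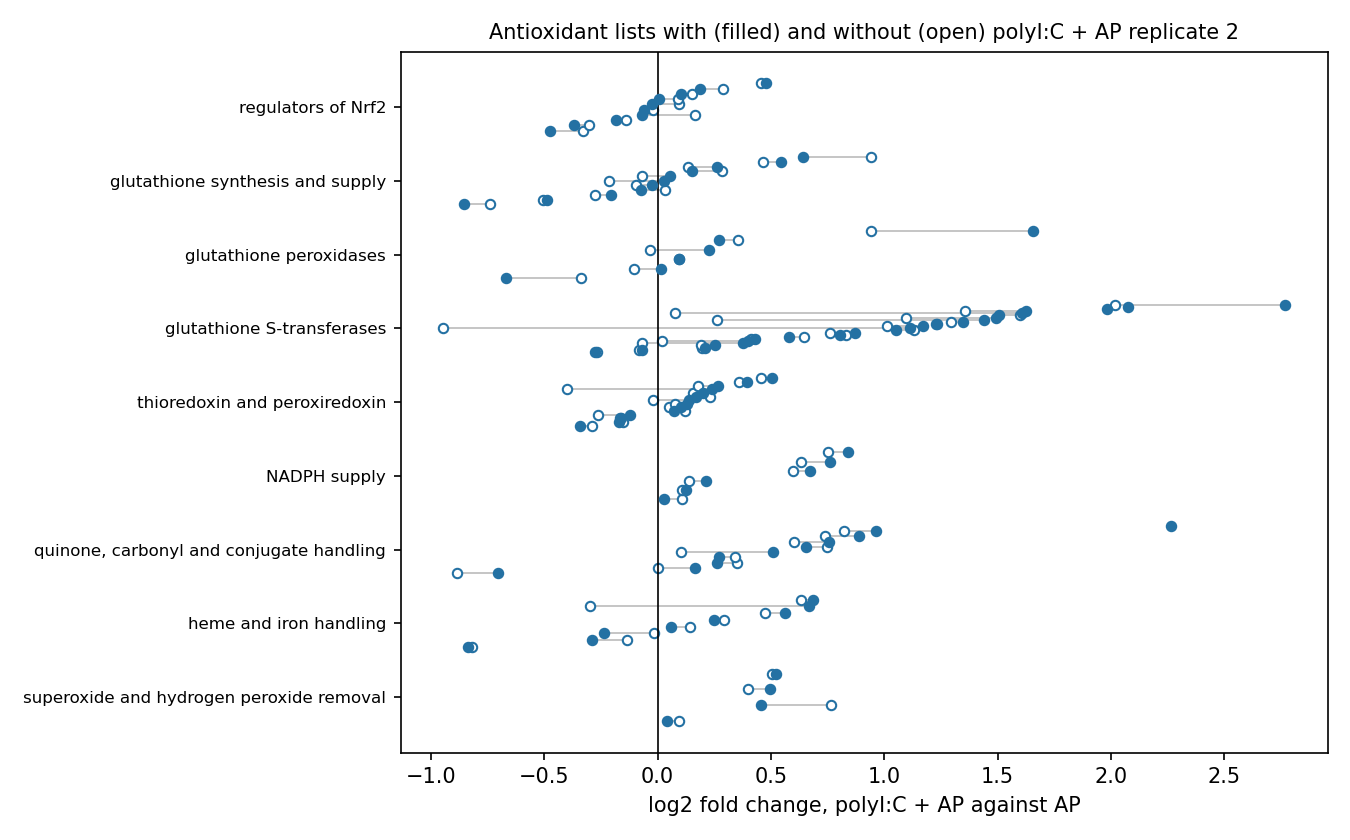
Log2 fold change in polyI:C AP versus AP for each tested gene of the 9 lists, with all 6 libraries (filled) and without polyI:C AP replicate 2 (open, where the gene still reached the mean of 1 TPM). Gpx2, in the glutathione peroxidase list, lies at 1.66 with that library and at 0.94 without it.

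Among 9413 genes that averaged 10 TPM or more, those whose profile over the 6 libraries was nearest to Hmox1 were Anxa3, Cdh1, Dusp5, Cd44 and Mcm5, with root mean square differences of 0.12, 0.17, 0.18, 0.23 and 0.24 in mean-centred log2 values. Anxa3 was measured at 16.5 and 13.7 TPM in saline mice, 163 and 149 TPM in AP mice, and 109.5 and 101 TPM in polyI:C AP mice. Those nearest to Nfe2l2 were Samhd1, Plgrkt, Zfp7, Mrpl45 and Erap1, with differences between 0.08 and 0.09. Samhd1 was measured at 10.3 and 10.9 TPM in saline mice, 37.1 and 35.4 TPM in AP mice, and 48.8 and 44.8 TPM in polyI:C AP mice.

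Of the 10 members, 6 overlap another annotated gene, so their reads may in part be shared, as the counting's use of strand was not given. Gpx2 overlaps Fntb on the opposite strand, at 2.64 and 2.34 TPM in saline mice, 7.66 and 7.02 TPM in AP mice, and 9.01 and 8.80 TPM in polyI:C AP mice. Txnrd1 overlaps Eid3 on the same strand, which was measured at 8.40 and 10.3 TPM in saline mice, 21.2 and 28.1 TPM in AP mice, and 27.2 and 28.6 TPM in polyI:C AP mice. Of the stretches of 100 bases, 2.44% in Gclm and 1.55% in Gpx2 occur in other genes.

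Promoters were searched because 7 of the members moved together in AP mice. RefSeq promoters (GRCm38.p6, 250 bases before to 50 after the start) were found for 8 members, with 10 promoters in all, and Gclc and Hmox1 had no entry. The core letters of the antioxidant response element, TGACNNNGC, were searched on both strands, as were those of the AP-1 site, TGANTCA. TGACNNNGC occurred in 4 of the 10 promoters (1 each of Nfe2l2, Gclm, Txnrd1 and Srxn1), against 12.4% of all 32851 promoters, and TGANTCA occurred in 1 of the 10, that of Srxn1, against 7.81%. The motifs overlapped in 0.454% of all promoters. Windows around the matches in the 250 bases before the start are shown 5′ to 3′ on the gene's strand, with the matched letters in capitals, for the member with the largest rise (Srxn1), for the regulator itself (Nfe2l2), and for the remaining members with a match (Gclm and Txnrd1). They lie at chr2:152105402-152105505 (plus strand) for Srxn1, chr2:75704875-75704913 (minus strand) for Nfe2l2, chr3:122245403-122245451 (plus strand) for Gclm and chr10:82859094-82859142 (plus strand) for Txnrd1. The capitals mark 2 TGANTCA matches in Srxn1, 102 and 45 bases before the start of its promoter entry. They mark 1 TGACNNNGC match in each of the others, 240 (Nfe2l2), 134 (Gclm) and 92 (Txnrd1) bases before the start of the entry, which reads in reverse in Gclm and Txnrd1. In Srxn1 the TGACNNNGC match lies 28 bases after the start of its entry, outside the window shown. The Txnrd1 match lies in 1 of the 3 promoter entries of that gene, at a start inside the annotated gene, and the entry at the 5′ end of the gene had 0 matches.
Srxn1: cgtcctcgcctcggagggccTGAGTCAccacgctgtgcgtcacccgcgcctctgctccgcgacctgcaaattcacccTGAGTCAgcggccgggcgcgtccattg
Nfe2l2: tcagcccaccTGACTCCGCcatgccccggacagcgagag
Gclm: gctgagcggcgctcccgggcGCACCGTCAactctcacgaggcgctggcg
Txnrd1: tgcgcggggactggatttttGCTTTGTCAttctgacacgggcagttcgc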

How the data were processed

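RNA of 6 pancreas libraries was analysed. The authors deposited TPM per gene and library. According to the submitters' processing notes, Trimmomatic, STAR, HTSeq, the mm10 build and DESeq2 were used before deposit, with versions not given in the sources used here. Symbols, coordinates and exon lengths came from GENCODE M21 (GRCm38), in which 22490 of 22556 identifiers were found. The members and lists were chosen with earlier results of these data known. Genes averaging 1 TPM or more over the libraries were fitted with limma 3.58.1 in R 4.3.3 on log2(TPM + 0.5), with 1 coefficient per group, a variance prior following mean TPM times exon length, and Benjamini-Hochberg adjustment over all tested genes. Reads per library were estimated from the spacing of low TPM × length values, of which 51.2% to 62.5% were within 0.1 of a whole number of reads (up to 20 reads) and, after shuffling lengths, 19.4% to 20.3%. Genes named are the 10 members, list genes called in polyI:C AP versus AP, the largest called rise and fall per list in AP versus saline, and 5 nearest profiles each for Hmox1 and Nfe2l2. Of each marker list, the gene with the highest mean over all libraries and genes at 0 are named. Also named are Hmox2 for a ratio, Gsta2 and Mgst2 for the filter, Fntb and Eid3 for overlaps, and further marker genes after their values were seen. Alternatives were other pseudocounts, filters, scaling, priors, call rules, a replicate block and leaving out each library. Motifs were searched in RefSeq promoters (GRCm38.p6). The small intestinal list, and showing results without polyI:C AP replicate 2, were added after seeing the data. The fit was tested on simulated data, with the outcome not given here. Tables were made with pandas 2.3.3 in Python 3.11.15.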

Additional observations from a re-analysis of the deposited data

How the results depend on the processing

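Over 17 alternatives, 493 of 510 fold changes of single members kept their direction and their side of the threshold. Versus saline, the counts of called members were 6 to 7 in AP and 7 in polyI:C AP mice when each library was left out in turn, and Gpx2 also lost its call in AP mice with a constant variance prior (adjusted p = 0.053 from limma, 0.00277 to 0.127 over all alternatives). All genes called in AP versus saline numbered 3730, and 6794 with no minimum fold, with 2458 to 3757 when 1 library was left out. In polyI:C AP versus saline the number was 3338, and 6592 with no minimum fold, with 2588 to 3441 when 1 library was left out. For polyI:C AP versus AP it was 142, against 90 with no filter on low values, 28 with a variance prior following the mean log2 value, 41 with a constant prior, 248 in a fit of the 4 libraries compared, 728 at an unadjusted p with 2-fold (1 member, Gpx2), and 0 to 141 when 1 library was left out. It was 0 without AP replicate 1, AP replicate 2 or polyI:C AP replicate 2. The cause of these differences was not tested, apart from the smaller number of libraries or genes in some fits.

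Directions changed for members near 0. Slc7a11 in AP versus saline went to -0.42 with median-of-ratios scaling and ran from -0.072 to 0.078 when 1 library was left out. With 1 library left out it ran from -0.18 to 0.031 in polyI:C AP versus AP and from -0.17 to 0.034 in polyI:C AP versus saline, where scaling gave -0.52. With 1 library left out Keap1 ran from -0.30 to 0.17 in polyI:C AP versus AP, and Gclm in polyI:C AP versus saline went to -0.37 with median-of-ratios scaling.

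With the replicate number as a replicate block, 3646, 124 and 3287 genes were called in the 3 comparisons in the order AP versus saline, polyI:C AP versus AP and polyI:C AP versus saline, and 7, 0 and 7 members. Deviations of same-numbered libraries correlated at 0.0075, 0.035 and -0.0039 across genes. The labels do not tie equal numbers together, and these correlations cannot exclude a pairing that affects only some genes. Where 1 library was left out, the lone library of its group was assumed to vary like the other groups. Depth limits the low genes of saline mice most.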

Other observations

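The other marker lists were measured as follows. The 8 neutrophil genes with values summed to 16.9 and 5.15 TPM in saline mice and 69.6 and 59.9 TPM in AP mice. In polyI:C AP mice they summed to 44.3 and 22.0 TPM, while Ly6g and Mpo were not analysed here. Retnlg had the highest mean over all libraries, but S100a8 and S100a9 were above it in saline replicate 1 and both polyI:C AP libraries. Elane was at 0 in the saline and AP libraries, Camp in both saline libraries, S100a8 and Cxcr2 in saline replicate 2, and Ltf in saline replicate 2 and polyI:C AP replicate 1. Of the neutrophil list 2 of 5 tested genes (Retnlg and S100a9) were called higher in AP versus saline, against 18.2% of all tested genes, and its part in the results was not tested. After scaling Retnlg was still called, but S100a9 was not, at a log2 fold change of 2.14. The 5 erythroid genes with values summed to 206 and 239 TPM, 134 and 292 TPM, and 73.3 and 44.1 TPM in the same order, with Hbb-bs the most abundant. For all 5, both polyI:C AP libraries were lower than both AP libraries, against 22.1% of all tested genes. The 7 islet genes summed to 1849 and 1722 TPM, 1871 and 1666 TPM, and 1019 and 1376 TPM. Iapp had the highest mean over all libraries, but Ins1 was above it in saline replicate 1 (648 against 579 TPM). The 7 fibroblast and stellate genes summed to 851 and 629.9 TPM, 797 and 969 TPM, and 829 and 702 TPM, with Dcn the most abundant. Dcn was lower in both AP libraries than in both saline libraries, with a log2 fold change of -0.73 (adjusted p = 0.0332 from limma), short of 2-fold, or -1.16 after scaling. Of these 7, 4 (Col1a1, Col1a2, Col3a1 and Lum, named after their values were seen) were called higher in AP versus saline, against 18.2% of all tested genes. The 6 genes other than Dcn were higher in both AP libraries than in both saline libraries. The share of all tested genes that did so was not computed. After scaling, the log2 fold change of Lum was 0.73, short of 2-fold. The part of this list in the results was not tested.

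The 6 endothelial genes summed to 86.3 and 57.4 TPM in saline mice, 68.6 and 66.5 TPM in AP mice, and 86.2 and 63.1 TPM in polyI:C AP mice, with Pecam1 the most abundant. The 9 lymphocyte genes summed to 12.7 and 15.9 TPM, 13.7 and 41.4 TPM, and 12.1 and 8.55 TPM, with Ptprc the most abundant, Cd8a at 0 in saline replicate 1 and polyI:C AP replicate 1, and Cd3e at 0 in replicate 1 of both AP groups. The 5 adipocyte genes summed to 82.6 and 43.5 TPM, 100.2 and 61.1 TPM, and 67.3 and 54.1 TPM, with Fabp4 the most abundant and Lep at 0 in saline replicate 2 and both polyI:C AP libraries.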
